A study of Arabidopsis thaliana with 16 samples.

Results

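The genes described here are 27 Arabidopsis thaliana genes, known in the tables used only by their locus tags, whose RNA fell steeply in both shade conditions and to a similar level with or without phytochrome A. They were found among 11799 locus-tag genes that had a probe set for that gene alone, on arrays of 22746 probe sets, and make up 0.229% of those genes. A gene was taken when the mean log2 intensity fell by at least 2.5, a 5.66-fold fall in linear intensity, in shade and in strong shade against white light, in the wild type and in the mutant. The 2 genotypes also had to differ by less than 1 on the log2 scale in each of the 3 lights, and the wild type by less than 1 between strong shade and shade. The members were thus chosen by the measured falls, genotype differences and WT step on these same arrays, so the falls, the genotype differences and the wild-type step are given as descriptions and carry no test.

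RNA came from whole seedlings of Col-0 wild type (WT) and of phyA-211, a null phyA mutant in the same background, grown in continuous white light for 5 days and then kept for 24 h in 1 of 3 lights. White light was given at about 45 µmol m-2 s-1. For shade, LEDs gave 13 µmol m-2 s-1 of red, 3.5 of blue and 21 of far-red light (R:FR 0.7), and for strong shade they gave 3 of red, 3.5 of blue and 30 of far-red light in the same unit (R:FR 0.1). Each genotype had 2 arrays for white light and 3 for each shade, which makes 16 arrays in 6 groups. The light source, its total output and its colour all changed between white light and the LED conditions, so their parts in a difference cannot be told apart. From shade to strong shade the amounts of red and far-red light changed together with their ratio, so these cannot be told apart either. The mutant is represented by 1 allele, and whole seedlings mix all tissues, so fewer cells of a type and less RNA per cell cannot be told apart. Nothing in the labels says that replicates came from separate batches of plants, so the p-values describe the spread between these arrays alone, which may be technical.

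Phytochromes are photoreceptors that switch between a red-absorbing and a far-red-absorbing form, and so read the ratio of red to far-red light. Leaves absorb red and pass far-red light, which lowers that ratio under a canopy and sets off the shade avoidance response of seedlings, with phytochrome B inactivated and growth-promoting PIF transcription factors released. Phytochrome A acts in far-red-rich light and is known to restrain this response in deep shade. The reference table matched all 27 members and gave them no name beyond the locus tag and clone-based synonyms, so no function is assigned to any of them here.

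Array medians lay between 13.5 and 15.1 on the linear scale. Among the phyA arrays, 2 stood apart. The third array labelled phyA shade had a mean r of 0.986 to the other phyA shade arrays and of 0.993 to the first 2 arrays of phyA strong shade. Array 3 under the label phyA strong shade had a mean r of 0.981 to the rest of its group and of 0.991 to the first 2 arrays of phyA shade. Each was thus closer to the other shade than to its own, and whether their labels were exchanged was not tested. Every phyA shade and phyA strong shade mean, step and genotype difference below follows the labels and includes both arrays unless stated, and the main ones are repeated without them. Of the fixed marker lists, 3 of 15 root genes and 6 of 13 green shoot genes had a usable probe set, and none was listed at 0. The summed linear intensity of the root markers was 2169 to 2497 in WT white light, 1367 to 1818 in WT shade and 1151 to 1349 in WT strong shade. In phyA it was 2455 to 2523 in white light, 920.4 to 1305 in shade and 779 to 1775 in strong shade. The green shoot markers summed to 13295 to 13379 in WT white light, 10216 to 10406 in WT shade and 9897 to 11210.4 in WT strong shade, against 12220.3 to 13240.3, 6716 to 7419 and 5869 to 6372 in phyA. Both sums were thus lower in shade as well, and their part in the falls below was not tested. The root sum was mostly PYK10, with a log2 mean of 11.2 in WT white light beside 4.32 for EXPA7 and 4.69 for EXPA18. All 3 were lower in both shades in both genotypes. Of the green shoot markers, FMA changed by 0.32 and 0.46 in WT shade and strong shade and by -0.17 and 0.09 in phyA. The other green shoot markers were lower in each comparison.

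The limits let through few genes. Of the locus-tag genes, 37 fell by 2.5 or more in both shades in WT, 108 did so in phyA, and 35 did so in both genotypes. All but 2 of the genes that fell this far in WT therefore did so in phyA too, while 73 passed in phyA and not in WT. Of the 35, the genotype limit removed 6 and the limit on the WT step removed 2. The genotype limit was passed in shade by 4 of the 6 and in strong shade by 3, each time with phyA the lower, and in white light by 1, AT5G03350, which was higher in phyA by 1.47. AT4G29030 and AT4G24780 went out because their WT step from shade to strong shade was -1.11 and -1.16. Over all probe sets, 0.488% were at -2.5 or lower in all 4 comparisons with white light. Taken singly, this was 0.602% in WT shade, 0.989% in WT strong shade, 1.36% in phyA shade and 1.57% in phyA strong shade. The members held 6 of the 10 largest mean falls among locus-tag genes, and 25 of the 50 largest.

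Across the 27 members the median change from white light was -3.15 in WT shade, -3.23 in WT strong shade, -3.38 in phyA shade and -3.38 in phyA strong shade, all on the log2 scale. Over all 22746 probe sets the same medians lay at -0.02, -0.00350, 0.03 and 0.04. As a mean over the 4 comparisons, the members kept between 2.69% and 15.2% of their white-light intensity, with a median of 10.5%. All 12 shade arrays lay below all 4 white-light arrays in each of the 27 members, a separation shown by 16.1% of all probe sets and close to fixed by the rule. The gap between the lowest white and the highest shade array ran from 1.47 in AT3G16530 to 4.55 in AT1G73600. The spread within groups was small beside these changes, with a pooled SD of 0.114 to 0.713 and a median of 0.223 (10 residual degrees of freedom), against a median of 0.172 over all probe sets.

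**Figure D1:**
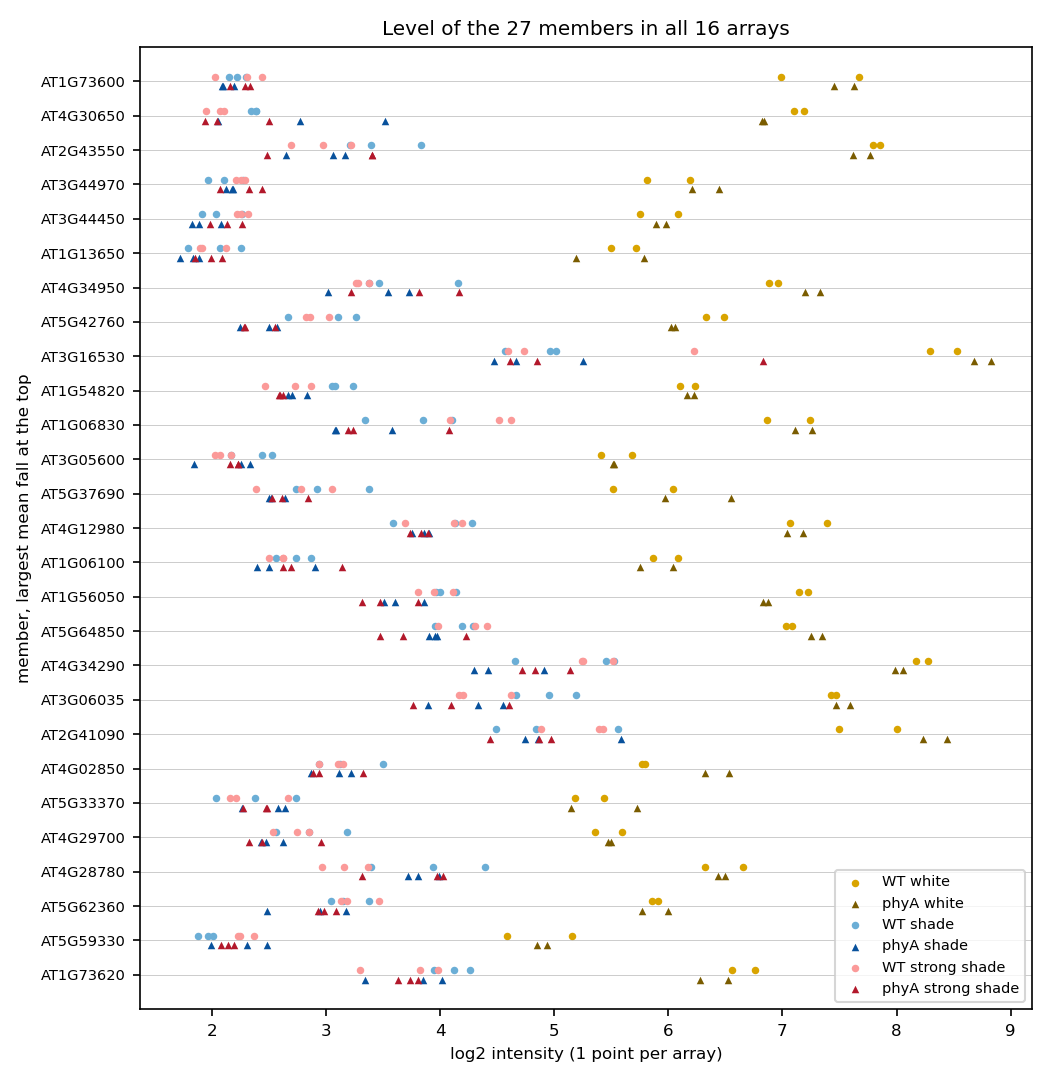
Log2 intensity (x axis) of the 27 members (rows, largest mean fall at the top) in each of the 16 arrays, with circles for WT and triangles for phyA and a colour for each light. All 12 shade points lie left of the 4 white-light points in every row, and the gap is narrowest in AT3G16530 at 1.47.

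AT1G73600 had the largest mean fall of all locus-tag genes, with a mean change of -5.22 on the log2 scale, and kept 2.69% of its white-light intensity. Its log2 intensity was 7.67 and 6.99 in WT white light and 7.62 and 7.45 in phyA white light. It stood at 2.15, 2.22 and 2.299 in WT shade and at 2.03, 2.44 and 2.31 in WT strong shade. In phyA it stood at 2.09, 2.20 and 2.096 in shade and at 2.29, 2.33 and 2.16 in strong shade. The 4 shade groups overlapped one another throughout, and phyA differed from WT by -0.10 in shade and 0.00204 in strong shade, inside the pooled SD of 0.193.

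AT4G30650 came next with a mean change of -4.65. WT arrays read 7.19 and 7.10 in white light, 2.35, 2.39 and 2.38 in shade, and 2.07, 1.95 and 2.11 in strong shade. The phyA arrays read 6.82 and 6.84 in white light, 3.52, 2.77 and 2.05 in shade, and 2.05, 1.94 and 2.50 in strong shade. WT strong shade thus lay wholly below WT shade. In phyA the 2 shades overlapped only through the third arrays, the ones that lay closer to the other shade. Without these, phyA strong shade, at 2.05 and 1.94, also lay wholly below phyA shade, at 3.52 and 2.77. AT4G30650 was the member with the largest excess of the WT fall over the phyA fall, by 0.58.

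AT2G43550 fell by 4.34 in WT shade and by 4.86 in WT strong shade. It read 7.85 and 7.79 in WT white light, 3.40, 3.21 and 3.84 in WT shade and 2.98, 2.69 and 3.22 in WT strong shade. In phyA it read 7.62 and 7.77 in white light, 3.17, 3.06 and 2.65 in shade and 3.40, 2.48 and 3.41 in strong shade. The phyA shade arrays all lay below the WT shade arrays, while in strong shade the genotypes overlapped.

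AT3G44970, AT3G44450 and AT1G13650 followed with mean changes of -3.96, -3.83 and -3.59. AT3G44970 ran from 5.81 to 6.44 in white light and from 1.96 to 2.44 in the 12 shade arrays. AT3G44450 ran from 5.75 to 6.08 and from 1.83 to 2.31. AT1G13650 ran from 5.19 to 5.78 and from 1.73 to 2.25. In these 3 genes the shade arrays of both genotypes lay within a narrow band, and with all arrays no group stood clear of the other shade groups. Without the third phyA arrays, phyA shade in AT3G44450, at 1.83 and 1.89, lay below the other shade groups. AT3G44970, AT3G44450 and AT1G13650 were in the lowest 25% of probe sets in 9, 11 and 12 of the 12 shade arrays. Differences are compressed at that end of the arrays, so the narrow band does not show equal RNA.

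AT4G34950 (mean change -3.56), AT5G42760 (-3.54), AT3G16530 (-3.52), AT1G54820 (-3.39), AT1G06830 (-3.39) and AT3G05600 (-3.33) complete the 12 largest mean falls. AT4G34950 ran from 6.88 to 7.33 in white light and from 3.02 to 4.16 in the 12 shade arrays, with the lowest shade value in the third phyA shade array. AT3G05600 ran from 5.41 to 5.68 and from 1.84 to 2.53, and AT1G54820 from 6.10 to 6.23 and from 2.46 to 3.23. AT1G54820 was the tightest member, with a pooled SD of 0.114, and AT3G16530 the loosest, with 0.713. AT3G16530 read 8.30 and 8.53 in WT white light and 8.83 and 8.68 in phyA white light. In shade it read 4.57, 5.02 and 4.97 in WT and 4.66, 4.47 and 5.25 in phyA. In strong shade it read 4.74, 4.59 and 6.22 in WT and 4.85, 4.62 and 6.83 in phyA. The third array was the highest in both strong shade groups, so the mean change of this gene in strong shade, -3.23 in WT and -3.32 in phyA, is smaller in size than the other arrays of those groups show. Without the third phyA arrays the phyA change in strong shade was -4.02.

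The remaining 15 members had mean changes between -3.28 in AT5G37690 and -2.72 in AT1G73620. AT4G12980 was the most even across comparisons, at -3.23 in both WT comparisons, -3.27 in phyA shade and -3.29 in phyA strong shade. AT5G33370 was nearly as even, at -2.92, -2.96, -2.94 and -3.02. AT5G37690, AT5G64850, AT2G41090 and AT4G02850 changed unevenly, with a mean in phyA of -3.65, -3.43, -3.43 and -3.37 and in WT of -2.90, -2.86, -2.65 and -2.66. Of the dimmer members, AT4G29700 ran from 5.36 to 5.60 in white light and from 2.32 to 3.19 in shade, and AT5G62360 from 5.77 to 5.998 and from 2.49 to 3.47. AT1G06100 ran from 5.76 to 6.09 and from 2.39 to 3.14. AT5G59330, with the lowest white-light percentile of the members, ran from 4.58 to 5.15 and from 1.88 to 2.49. In each of these the shade arrays of the 2 genotypes interleaved in at least 1 of the 2 shades, but without the third phyA arrays those of AT4G29700 lay wholly below WT in both shades.

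Some members were bright in white light and remained clear of the dim end of the arrays in shade. AT4G34290 read 8.28 and 8.17 in WT white light and 7.99 and 8.05 in phyA white light. It read 4.65, 5.46 and 5.52 in WT shade and 5.51, 5.24 and 5.25 in WT strong shade, against 4.42, 4.91 and 4.302 in phyA shade and 4.71, 4.84 and 5.14 in phyA strong shade. The phyA arrays lay below the WT arrays in strong shade without overlap. AT2G41090 read 7.49 and 8.002 in WT white light and 8.23 and 8.44 in phyA white light, and between 4.44 and 5.58 in the 12 shade arrays, where the genotypes overlapped. AT3G06035 read between 7.43 and 7.60 in white light and between 3.76 and 5.19 in shade.

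Members differed in how close they came to the dim end of the arrays, where RMA compresses differences and a fold change understates the change in RNA. A percentile of an array places a signal among the other probe sets and is no measure of RNA amount between genes, because probe sets differ in brightness for the same amount. In white light the members lay on average between the 62.4th percentile in AT5G59330 and the 95.6th in AT3G16530, and in shade between the 11.4th in AT1G13650 and the 64.6th in AT3G16530. AT1G13650 was in the lowest 25% of probe sets in all 12 shade arrays. AT3G44450 was there in 11 arrays, and AT1G73600, AT3G44970, AT3G05600 and AT5G59330 in 9 each. AT4G30650 was there in 6, AT5G33370 in 5 and AT5G42760 in 3. The other 18 members were never in the lowest 25%, but that cut is arbitrary and some of them lay close to it. AT4G29700 averaged the 33.7th percentile in shade, the same as AT5G42760 at 33.7, so dim signals may limit some of the 18 too.

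**Figure D2:**
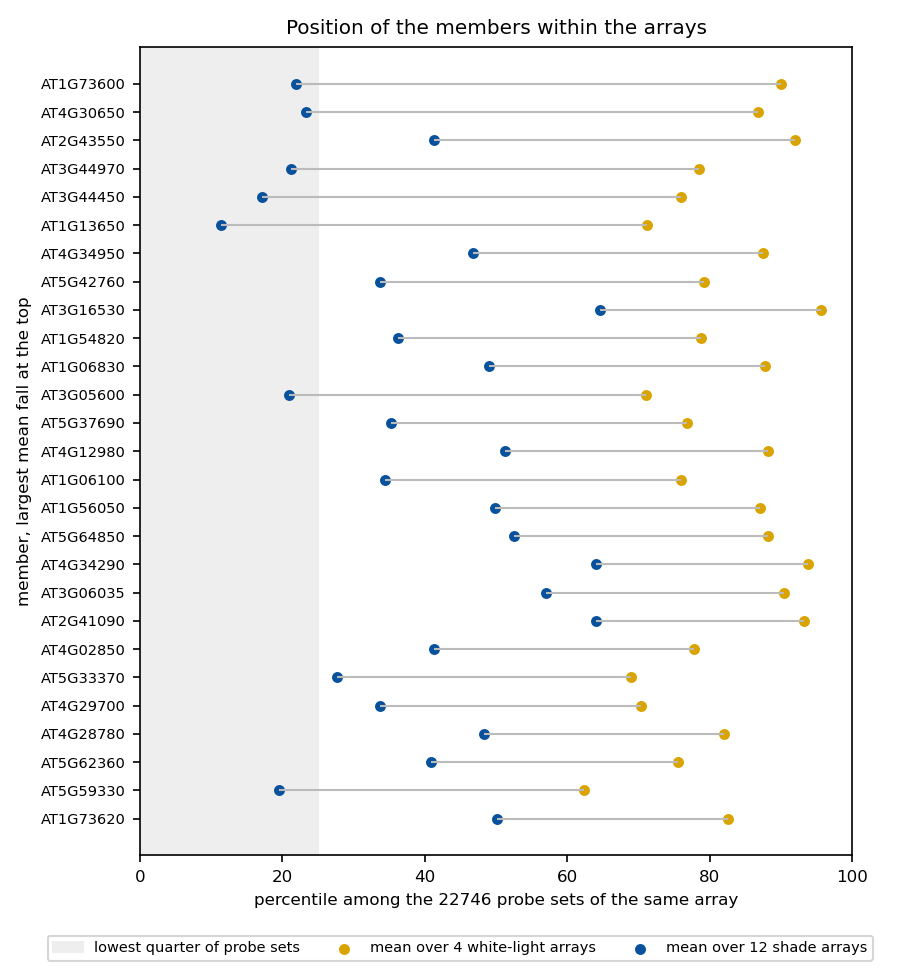
Mean percentile among the 22746 probe sets of the same array (x axis) of each member (rows, largest mean fall at the top) over the 4 white-light arrays and over the 12 shade arrays, joined by a line, with the lowest 25% shaded. In shade AT1G13650 lies lowest at 11.4 and AT3G16530 highest at 64.6.

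The genotypes were next set side by side, within the limit of 1 that the rule put on their difference. The mean fall from white light was larger in phyA than in WT in 21 of the 27 members, with a median difference of -0.25 on the log2 scale (-0.22 and 20 members without the third phyA arrays). Over all probe sets the median of this difference was 0.05, and over the 35 locus-tag genes that fell in all 4 comparisons it was -0.25, with 28 of 35 falling further in phyA. The direction of the median was the same after median centring (21 members) and cyclic loess (23 members). The rule chose these genes by the same falls, and the 35 include the 27 members, so nothing further is read from this direction. AT1G06830 differed most, at -0.84, followed by AT2G41090 at -0.78, AT5G37690 at -0.75 and AT4G02850 at -0.71. Without the third phyA arrays these 4 stood at -0.86, -0.73, -0.79 and -0.64, and AT3G16530 moved from -0.25 to -0.71. A higher phyA level in white light enters the difference in AT2G41090, AT5G37690 and AT4G02850, by 0.59, 0.48 and 0.64. With all arrays, phyA minus WT in shade and strong shade was 0.10 and -0.48 in AT2G41090. It was -0.46 and -0.08 in AT5G37690, and -0.12 and -0.02 in AT4G02850. The members that fell further in WT were AT4G30650 by 0.58, AT4G28780 by 0.29, AT1G06100 by 0.13, AT1G73620 by 0.08, AT5G59330 by 0.06 and AT1G13650 by 0.01. Without the third phyA arrays AT4G30650 stood at 0.68, and AT3G05600 joined those that fell further in WT, at 0.04.

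**Figure D3:**
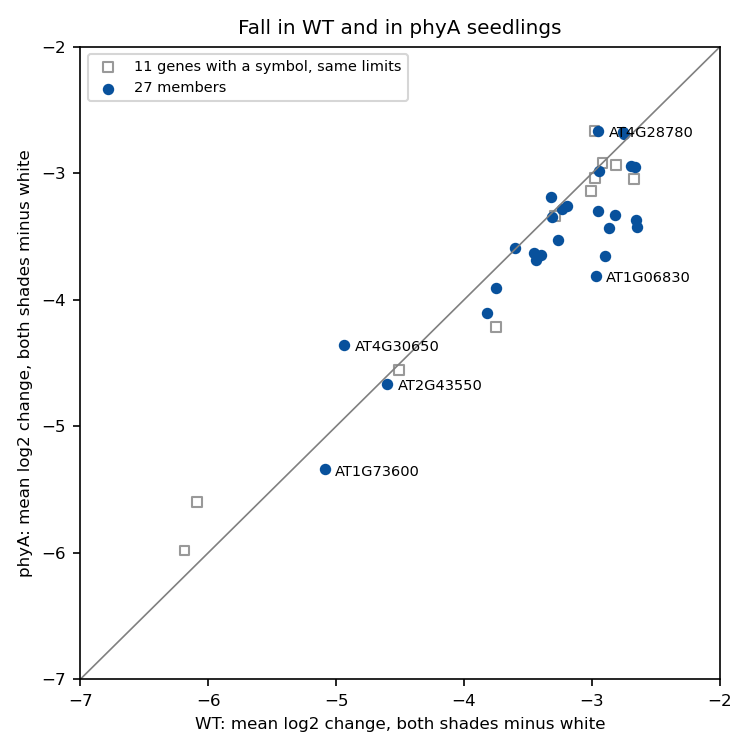
Mean log2 change from white light over both shades in WT (x axis) and in phyA (y axis) for the 27 members (filled circles) and for the 11 genes with a symbol that pass the same limits (open squares), with the line of equal change. The 21 members under the line fell further in phyA, and AT1G06830 lies furthest below it at -0.84.

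In shade itself, 22 of the 27 members were lower in phyA than in WT, with a median difference of -0.22, while 16 were lower in strong shade (median -0.08) and 12 in white light (median 0.02). Over all probe sets the median genotype difference was 0.01 in shade, 0.02 in strong shade and -0.04 in white light. In shade 6 members had all phyA arrays below all WT arrays, a pattern shown by 10.3% of all probe sets, and 0 had them all above, against 10.4%. Those 6 were AT2G43550, AT5G42760, AT1G54820, AT5G37690, AT1G56050 and AT3G06035. In strong shade 6 members lay wholly below WT, against 12.1% of all probe sets, and 0 above, against 14.6%. These were AT5G42760, AT1G06830, AT1G56050, AT4G34290, AT5G62360 and AT5G59330. Without the third phyA arrays the numbers below were 9 in shade, against 15.1%, and 9 in strong shade, against 17.2%, and those above were 1 and 0, against 16.3% and 24.3%. In white light, with 2 arrays a genotype, 6 members lay wholly below and 6 wholly above WT, against 25.1% and 14.6% of all probe sets. These comparisons were used by the rule, and nothing further is read from the counts.

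AT1G56050 and AT5G42760 were lower in phyA without overlap in all 3 lights. AT1G56050 read 7.23 and 7.15 in WT white light and 6.83 and 6.88 in phyA white light. It read 4.00, 4.14 and 3.96 in WT shade against 3.51, 3.86 and 3.60 in phyA. In strong shade it read 3.95, 4.11 and 3.81 in WT against 3.48, 3.32 and 3.81 in phyA. There the highest phyA array, 3.8078, lay only just below the lowest WT array, 3.8083. That gap is far inside the pooled SD of this gene, 0.160. The genotype difference was -0.33 in white light, -0.38 in shade and -0.42 in strong shade. AT5G42760 differed by -0.37 in white light, -0.57 in shade and -0.53 in strong shade, and after median centring its shade arrays overlapped. Without the third phyA arrays AT1G56050 stood at -0.35 in shade and -0.56 in strong shade and AT5G42760 at -0.64 and -0.48, still without overlap.

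AT1G06830 had the largest genotype difference of any member in any light, -0.90 in strong shade. Its WT arrays read 7.24 and 6.87 in white light, 3.35, 3.85 and 4.104 in shade and 4.52, 4.09 and 4.62 in strong shade. Its phyA arrays read 7.26 and 7.11 in white light, 3.09, 3.08 and 3.58 in shade and 3.19, 4.08 and 3.24 in strong shade. WT strong shade was thus the highest of the 4 shade groups for this gene, and the second phyA strong shade array lay just below the lowest WT array. The next largest differences were -0.68 in shade in AT3G06035, -0.67 in shade in AT4G34290 and 0.64 in white light in AT4G02850. This order rests on the third phyA arrays. Without them AT1G06830 still had the largest, at -0.77 in strong shade, but AT4G30650 followed at 0.77 in shade, against 0.41 with all arrays. AT3G06035 and AT4G34290 then stood at -0.50 and -0.55 in shade, and AT5G64850 at -0.66 in strong shade, against -0.45 with all arrays. AT4G02850 read 5.77 and 5.80 in WT and 6.32 and 6.53 in phyA in white light, and the genotypes overlapped in both shades.

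The step from shade to strong shade was small in WT, as the rule required, with a median of -0.08 and 16 of 27 members lower in strong shade. AT4G28780 had the largest, -0.75, from 3.39, 3.94 and 4.40 in shade to 3.37, 2.97 and 3.16 in strong shade. AT1G06830 followed at 0.64, AT3G06035 at -0.61 and AT2G43550 at -0.52. WT strong shade lay wholly below WT shade in 6 members, against 11.4% of all probe sets, and wholly above in 1, AT5G59330, against 11%. The 6 were AT4G30650, AT4G34950, AT1G54820, AT3G05600, AT3G06035 and AT4G28780.

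The same step in phyA was not used by the rule, although the limits on the WT step and on the genotype difference bound it, and it was tested with limma over all probe sets. None of the 27 members was called at an adjusted p under 0.05, and 1, AT4G30650, had an unadjusted p under that value. Over all probe sets limma also called 0, or 0%, with 852 at an unadjusted p under 0.05 and a smallest adjusted p of 0.998. The members' median step in phyA was 0.06, beside 0.01 over all probe sets, with 13 lower and 14 higher in strong shade. The largest steps were 0.64 ± 0.478 (SE) in AT3G16530, -0.62 ± 0.249 in AT4G30650, 0.35 ± 0.206 in AT4G34290 and 0.30 ± 0.235 in AT4G34950, each with a limma adjusted p of 0.998. Misses of the threshold here do not show that the 2 shades gave equal levels.

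Without the third phyA arrays limma called 874 probe sets, 3.84% of all, and 1 of the 27 members, a share near that background. The member was AT4G30650, which fell by 1.15 ± 0.177 (SE) from shade to strong shade (limma adjusted p = 0.00245). Its remaining phyA arrays read 3.52 and 2.77 in shade and 2.05 and 1.94 in strong shade. The arrays left out were picked after they were seen to lie closer to the other shade. Leaving them out favours calls for the phyA step by construction, so nothing is concluded from the 874 calls or from this p-value. The rest of the members had steps between -0.51 in AT2G41090 and 0.55 in AT1G06830, and none of them was called. The median over the members was then -0.07, beside 0.03 over all probe sets, with 16 members lower. The phyA step had the same sign as the WT step in 16 of 27 members with all arrays and in 19 without the third arrays. As a description across the 27 members, which are measured in the same RNA, the WT and phyA steps correlated at r = 0.296 with all arrays and at r = 0.499 without the third arrays, against 0.255 and 0.603 across all probe sets.

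**Figure D4:**
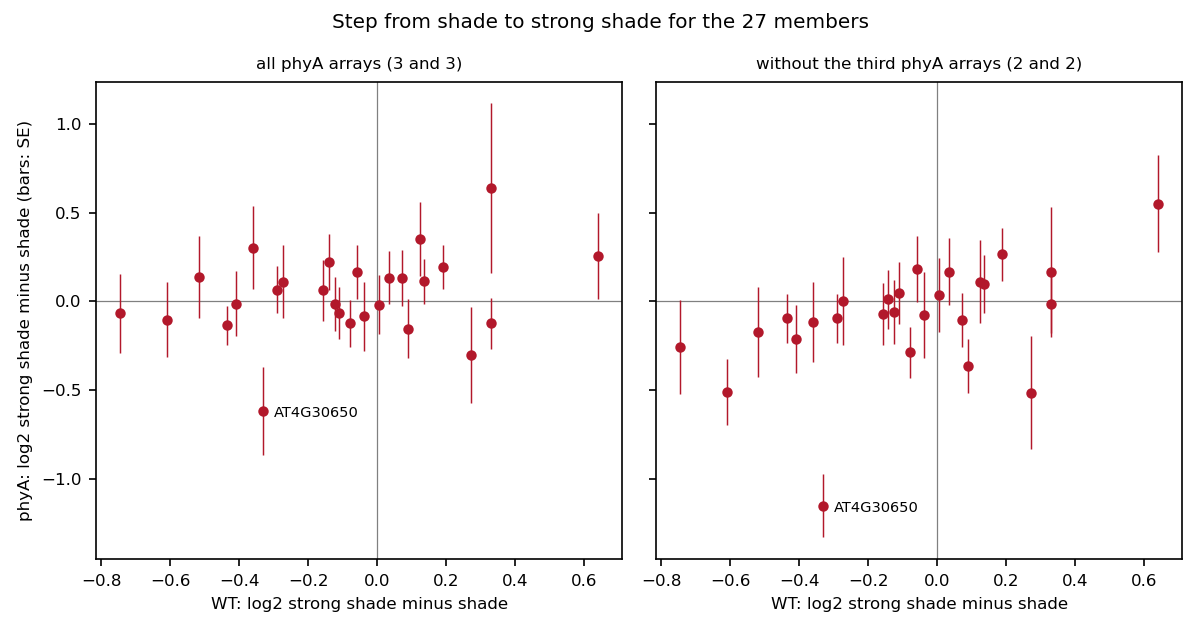
Log2 difference of strong shade minus shade in WT (x axis) and in phyA (y axis, bars are limma's SE) for the 27 members, with all phyA arrays on the left and without the third phyA arrays on the right. AT4G30650 lies lowest in phyA, at -0.62 and -1.15.

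The limit of -2.5 cut through a continuous range. The members just inside it, by their least negative comparison, were AT2G41090 and AT3G06035 at -2.51, AT1G73620 at -2.55 and AT4G28780 at -2.58. The genes just outside, with every other limit met, were AT2G37660 at -2.497, AT5G50740 at -2.47, AT2G27420 at -2.41 and AT4G02800 at -2.39. AT2G37660 in particular missed by one comparison, reading -2.51 in WT strong shade, -2.78 in phyA shade and -2.998 in phyA strong shade.

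Genes with a symbol were held to the same limits for comparison. Of 1557 such genes, 11 passed, or 0.706%, against 0.229% of the locus-tag genes, a difference that was not tested. BCAT4, an aminotransferase gene of aliphatic glucosinolate synthesis, changed by -6.09 on average and the glutathione transferase gene GSTU20 by -5.84, both further than AT1G73600 at -5.22. The expansin gene EXPB3, which belongs to a family that loosens cell walls, changed by -4.53, close to AT4G30650 and AT2G43550. The rest of the 11 lay between -3.98 and -2.82, within the range of the members. With the limits mirrored to rises, 37 locus-tag genes passed, 0.314%, and their median mean change was 3.13, against -3.26 for the 27 that fell.

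The position of the members was examined by gene order alone, since no build is named for the arrays. Of the 27, 7 lie on chromosome 1, 2 on chromosome 2, 5 on chromosome 3, 7 on chromosome 4 and 6 on chromosome 5, where the locus-tag genes measured number 3051, 1929, 2410, 1697 and 2664. No member lies within 2 genes of another. AT1G73600 and AT1G73620 come closest, and AT1G73610 between them changed by 0.24 on average. Of the 107 genes within 2 places of a member, 44 were measured. Their median change over the 4 comparisons was 0.15, beside 0.02 over all 13356 genes. Of the 44, 5 (11.4%) fell by 1 or more, against 7.44% of all genes, and 2 (4.55%) rose by 1 or more, against 6.61%. These shares were not tested. The largest fall among the measured neighbours was that of AT2G43560, next to AT2G43550, at -2.32. That gene changed by -1.81 and -1.43 in WT and by -3.03 and -3.02 in phyA. On the other side of AT2G43550, AT2G43540 changed by 1.19, and the largest rise, 1.73, was in AT1G13640 beside AT1G13650.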

How the data were processed

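The authors deposited linear intensity values per probe set, made with RMA in affy per the submitters' processing notes, with versions and array build not given in the sources used here. They ran from 2.33 to 6167, too high for log2. The log2 was taken with no pseudocount and no further scaling. Probe sets were named by the platform annotation and a reference table of assembly TAIR10.1: 13513 list 1 gene, 503 several and 8730 none, and the last 2 kinds stay unnamed. A gene was represented by its brightest probe set, but none of the 27 members had another, so the planned check on further probe sets gave no value. The members and lists were chosen with earlier results of these data known. The phyA step was tested with limma 3.58.1 in R 4.3.3, with 1 mean per group over 16 arrays, eBayes and Benjamini-Hochberg adjustment over 22746 probe sets at 0.05, after the procedure had been tested on simulated data. Values after ± are SE. The genes named were the members with the 12 largest mean falls, the 6 brightest in white light, those with the 4 largest genotype differences and steps, and the 4 on either side of the limit. The remaining members, the genes that the other limits removed and the 4 neighbours named were outside this rule and chosen after their values were seen. Alternatives were other scalings, limits, variance models, a filter on the dimmest 40% of probe sets, the replicate block and each array left out. Promoter and protein sequences were not used here. The number of arrays limits the precision.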

Additional observations from a re-analysis of the deposited data

How the results depend on the processing

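The 27 members numbered 24 to 31 when any 1 array was left out, 23 after median centring (22 shared), 28 after cyclic loess (27 shared), 24 with group medians (22 shared), 23 without the dimmest 40% of probe sets and 28 without the third phyA arrays (26 shared). A limit of -2 gave 63 genes and a limit of -3 gave 14. The members' median change after median centring was -3.10 in WT strong shade, -3.28 in phyA shade and -3.28 in phyA strong shade, where all 22746 probe sets had medians of 0.05, 0.13, 0.13 and 0.14 in WT shade, WT strong shade, phyA shade and phyA strong shade. In phyA strong shade it was -3.48 after cyclic loess and -3.55 without the third phyA arrays, and with group medians it was -3.48 in phyA shade and -3.47 in phyA strong shade. Leaving out 1 array gave -3.21 to -3.06 in WT shade, -3.29 to -3.07 in WT strong shade, -3.47 to -3.36 in phyA shade and -3.55 to -3.31 in phyA strong shade. All 513 recomputed mean changes of single members moved by less than the pooled SD of that gene. For the phyA step, limma called 0 probe sets under each other scaling, filter, variance model and choice of groups, 0 whichever array was left out, and 874 without the third phyA arrays, a choice made after seeing the data. With the replicate block limma also called 0. Same-numbered arrays deviated together by more than r = 0.1 in 7 of 36 pairs, so the numbers were not taken as pairing. Dim signals limit the fold changes of the 9 members that reached the lowest 25% of an array, and may limit those of members just above that cut.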
